A study of Homo sapiens with 6 samples.

Results

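MEST and 9 other genes of the imprinted class (PEG3, PEG10, SGCE, IGF2, PLAGL1, DLK1, NDN, MAGEL2 and GRB10) were followed in RNA-seq libraries of PANC-1 cells, an established human line from a ductal pancreatic cancer. The genes were taken by symbol, and all 10 had 1 row each among the 20036 genes of the deposited table. They were selected on the measured MEST counts of these same libraries, with MEST nearly silent in the control libraries and present in the knockdown libraries. All member values from this contrast, calls included, are therefore given as a description and are no test of the members. The control cells received a null virus and the other cells a lentivirus against SHMT2, the mitochondrial serine hydroxymethyltransferase that feeds one-carbon units into folate. There were 3 libraries per group, and values by library are always given in the order of replicates 1, 2 and 3. The labels give no other agent, no time after infection and no targeting sequence, and they do not say whether replicates were separate cultures, so errors and p-values measure how far these libraries differ, and that spread may be technical.

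Genomic imprinting is the expression of a gene from the maternal or the paternal chromosome alone, set by DNA methylation laid down in the germ line and copied at each cell division. Many paternally expressed imprinted genes, among them IGF2, MEST and PEG3, act in fetal and placental growth, and they are often low or silent in adult tissues. In tumours imprinted loci can gain or lose methylation. Gene-level read counts do not separate the parental alleles, so the values below are total transcript levels and do not show whether a gene was imprinted in these cells.

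MEST (mesoderm specific transcript) encodes a protein of the alpha/beta hydrolase fold. Its row (ENSG00000106484) spans chromosome 7, 130486171 to 130506465, on the plus strand of GRCh38. RefSeq (GRCh38.p14) lists several MEST starts, and the table's single row merges them. The windows before the most upstream start and before the start with the highest CpG count are shown because the merged row does not tell which start was used. Capitals mark CpG dinucleotides, the sites of DNA methylation, of which the first sequence holds 9 and the second 20.
MEST upstream start, chr7:130485925-130486174, plus strand: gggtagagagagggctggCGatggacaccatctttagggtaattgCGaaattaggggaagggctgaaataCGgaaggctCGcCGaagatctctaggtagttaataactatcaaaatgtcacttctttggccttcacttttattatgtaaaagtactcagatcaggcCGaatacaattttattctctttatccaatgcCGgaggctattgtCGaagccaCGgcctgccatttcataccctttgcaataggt
MEST downstream start, chr7:130491835-130492084, plus strand: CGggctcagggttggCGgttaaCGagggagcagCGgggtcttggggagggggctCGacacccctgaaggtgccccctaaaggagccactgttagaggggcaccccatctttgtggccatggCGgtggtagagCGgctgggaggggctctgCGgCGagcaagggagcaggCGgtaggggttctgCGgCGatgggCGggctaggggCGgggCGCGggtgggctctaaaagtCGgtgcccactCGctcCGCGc
The row also covers the microRNA gene MIR335, whose 5p product is shown with its seed, bases 2 to 8, in capitals. No level of it is given here.
hsa-miR-335-5p: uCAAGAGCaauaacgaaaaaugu

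RefSeq windows of 300 bases (250 before and 50 after a start) were found for 5 of the 10 genes, with 17 windows between them. The median window of the whole RefSeq table, over 35116 windows, held 14 CpG. The 5 MEST windows held 13, 22, 16, 22 and 25 from the most upstream start to the most downstream. NDN, whose product necdin restrains growth in neurons, held 35 CpG, more than 85.9% of all windows, and MAGEL2, its neighbour, held 9. GRB10 windows ran from 3 to 49 and PLAGL1 windows from 2 to 39. The letters TGCCGC, the core recognised by the imprint-protecting zinc finger protein ZFP57 when methylated, were searched on both strands, and they are in 16.7% of all windows. MEST windows held 1, 1, 0, 2 and 3 matches in the same order, NDN held 1 and MAGEL2 0. The 2 most upstream MEST windows overlap, as do the 2 most downstream, so the same bases can be counted in both windows of a pair. From the most upstream start on, GRB10 windows held 1, 0, 0, 0 and 0 matches and PLAGL1 windows 0, 0, 2, 0 and 0. A match describes the letters of the window only.

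The libraries held 15405884 to 19075734 counts. SHMT2 had 2113, 2284 and 2417 counts in the control libraries against 139, 56 and 101 in the knockdown libraries, which fits the labels. In each group 1 library differed from its fellows, control replicate 1 and knockdown replicate 2. Pairs of libraries holding either of these gave a chi-square per gene of 24.64 to 72.34, where the remaining pair of each group gave 2.04 (control) and 2.4 (knockdown). In knockdown replicate 2, 10.4% of counts came from the 13 mitochondrially encoded genes, against 4.72% to 6.86% in the other libraries. Results are therefore also given without these 2 libraries. Of the epithelial markers, the keratin KRT8 lay at 947 ± 101 CPM in controls, where CPM is the count scaled to library size with TMM factors (SD, n = 3). The defining ductal keratin KRT19 had only 3, 4 and 0 counts in the control libraries against 1523, 900 and 1518 in the knockdown libraries, and the epithelial cadherin CDH1 12, 9 and 23 against 57, 68 and 95. Both rose (edgeR adjusted p = 7.41e-06 and 0.00239), as did KRT8 (adjusted p = 0.00342). The epithelial adhesion molecule EPCAM fell, from 286, 279 and 278 to 120, 124 and 141 counts (log2 fold change -1.38, SE 0.13, edgeR adjusted p = 0.000172). The part of these markers in the results below was not tested.

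MEST separated the groups most among the members, which follows from its selection on these same counts. It had 1, 3 and 2 counts in the control libraries against 188, 173 and 192 counts in the knockdown libraries. In scaled units these are 0.0629, 0.2 and 0.127 CPM against 9.34, 10.6 and 9.94 CPM. The knockdown libraries lay close together, and the group means were 0.130 ± 0.0688 and 9.95 ± 0.613 CPM (SD, n = 3). Knockdown replicate 2, the library with the high mitochondrial share, did not stand out for MEST. With 6 control and 553 knockdown counts in all, the ratio of MEST per scaled read was 77.1, with an exact 95% interval of 35.2 to 211 that covers counting error only. The fitted log2 fold change was 6.19 (SE 0.27), the 23rd highest of 12292 tested genes, and 5.83 when both libraries that differed from their fellows were left out. Since MEST was selected on these same counts, the interval, the SE and the rank are descriptions and no test of it. In bulk RNA, more cells with a transcript and more transcript per cell cannot be told apart.

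The MEST row shares exon bases with other genes of the opposite strand in GENCODE 29. COPG2, a coat protein subunit gene, shares 4.76% of them, and the antisense RNAs MESTIT1 and AC007938.2 share 10.1% and 12.6%. Whether reads were counted by strand is not given. COPG2 had 234, 198 and 231 counts in the same control libraries in which MEST had at most 3. In the knockdown libraries COPG2 had 554, 456 and 499 counts.

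Per kilobase of gene length (FPKM), the members spread over several orders of magnitude, and PEG10 was the highest in both groups, at 131 ± 8.87 in controls and 87.2 ± 9 in knockdown libraries (SD, n = 3). In controls the order after PEG10 was GRB10 (21 ± 1.06 FPKM), IGF2 (3.61 ± 0.501), SGCE (1.77 ± 0.152) and PLAGL1 (1.35 ± 0.141), and none of these neighbours in the order overlapped. DLK1 (0.0398 ± 0.0359) and MEST (0.0265 ± 0.014) followed with overlapping ranges. In the knockdown libraries MEST, at 2.14 ± 0.0686 FPKM, stood between IGF2 (2.31 ± 0.382), whose range it overlapped, and SGCE (1.89 ± 0.14). Of all genes in the table, 31.2% had a lower mean control FPKM than MEST and 56.7% a lower mean knockdown FPKM, so the gene moved from the silent range to a middle level.

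**Figure D1:**
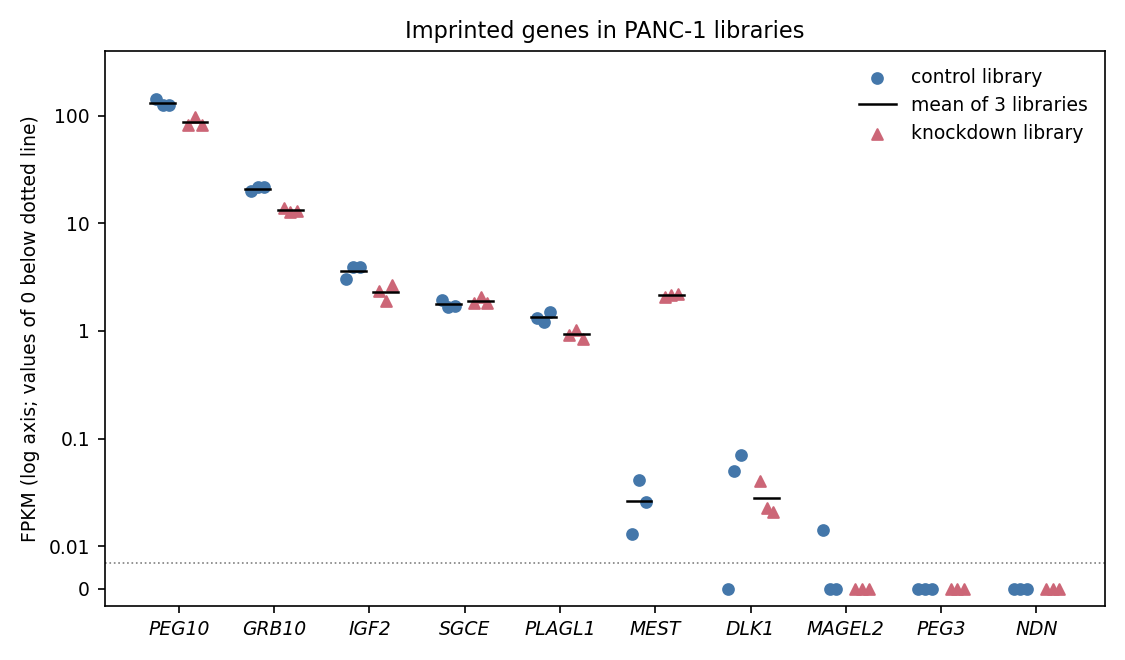
FPKM (log axis, values of 0 drawn below the dotted line) of the 10 members in each of 3 control libraries (circles) and 3 knockdown libraries (triangles), with the group mean as a bar where no library was at 0. MEST moves from 0.0265 to 2.14 FPKM, PEG10, GRB10, IGF2 and PLAGL1 sit lower in the knockdown libraries, and the groups of SGCE overlap.

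PEG10 and SGCE form 1 imprinted domain on chromosome 7. PEG10 (ENSG00000242265, 94656325 to 94669695, plus strand) descends from a retrotransposon and encodes Gag-like and Pol-like proteins, and SGCE (ENSG00000127990, 94524204 to 94656572, minus strand) encodes epsilon-sarcoglycan, a membrane protein mutated in myoclonus-dystonia. They are transcribed in opposite directions from adjoining starts. PEG10 lay at 969, 869 and 874 CPM in the control libraries and 522, 668 and 519 CPM in the knockdown libraries. Every knockdown library was below every control library, and knockdown replicate 2 was the highest of the knockdown libraries. The log2 fold change of PEG10 was -0.67 (SE 0.12), and -0.74 without the pair of differing libraries.

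SGCE lay at 41.4, 35.5 and 36.8 CPM in the control libraries and 35.7, 43.7 and 35.8 CPM in the knockdown libraries. The groups overlapped, with a log2 fold change of 0.02 (SE 0.12) that lay between -0.10 and 0.09 over all alternatives. The highest SGCE value of each group was in the library that differed from its fellows. Within a library, the ratio of PEG10 to SGCE in FPKM does not depend on scaling. That ratio was 73, 76.3 and 74.1 in the control libraries and 45.6, 47.7 and 45.3 in the knockdown libraries. The 2 genes of the domain thus moved unequally in all 3 knockdown libraries. They share 219 exon bases on opposite strands, 3.27% of PEG10 and 1.05% of SGCE, so a small part of the reads could be assigned to either.

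IGF2 (insulin-like growth factor 2, ENSG00000167244, chromosome 11, 2129112 to 2158391, minus strand) is the fetal growth factor of the class. It lay at 22.2, 28.7 and 28.8 CPM in the control libraries and 15.9, 13.9 and 18.1 CPM in the knockdown libraries. All 3 knockdown libraries were lower, with a log2 fold change of -0.73 (SE 0.15). In GENCODE 29, 73.7% of the exon bases of IGF2 lie in a second gene model of the same name and strand, and 20.9% in the readthrough gene INS-IGF2. Both of those rows had 0 counts in every library, and how reads at shared bases were assigned is not given, so the level of IGF2 is uncertain.

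GRB10 (growth factor receptor bound protein 10, ENSG00000106070, chromosome 7, 50590063 to 50793462, minus strand) is an adaptor that damps insulin and IGF1 receptor signalling, and its expressed allele depends on isoform and tissue. GRB10 had 198, 219 and 218 CPM in the control libraries and 127, 128 and 120 CPM in the knockdown libraries. The groups were clearly apart, and the knockdown mean of 125 ± 4.38 CPM was 59% of the control mean of 212 ± 11.7 (SD, n = 3). The log2 fold change was -0.76 (SE 0.08).

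PLAGL1 (ZAC1, ENSG00000118495, chromosome 6, 143940300 to 144064599, minus strand) is a zinc finger transcription factor that can arrest the cell cycle. PLAGL1 had 8.75, 8.02 and 9.94 CPM in the control libraries and 5.57, 6.66 and 5.13 CPM in the knockdown libraries. The knockdown libraries were lower without overlap, at a log2 fold change of -0.63 (SE 0.16). PLAGL1 no longer passed the threshold without control replicate 3 (log2 fold change -0.54) or without knockdown replicate 3 (-0.54).

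The other 4 members stayed at or near 0 in both groups and had too few counts to be tested. PEG3, a zinc finger gene (ENSG00000198300, chromosome 19, 56810077 to 56840728, minus strand), and NDN (ENSG00000182636, chromosome 15, 23685400 to 23687305, minus strand) had 0 counts in all 6 libraries. A total of 0 over a group allows up to 0.0643 CPM in controls and 0.0538 CPM in knockdown libraries (3 counts over the group, counting error only). MAGEL2, a ubiquitin ligase regulator from the Prader-Willi region (ENSG00000254585, chromosome 15, 23643549 to 23647867, minus strand), had 1 count in control replicate 1 and 0 elsewhere. DLK1, a Notch-like membrane protein of progenitor cells (ENSG00000185559, chromosome 14, 100725705 to 100738224, plus strand), had 0, 4 and 6 counts in the control libraries against 4, 2 and 2 in the knockdown libraries, which overlap. No appearance of these 4 genes in the knockdown libraries was detectable at this depth.

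Of the 10 members, 6 passed the filter on low counts, MEST only through its knockdown libraries. Past an adjusted p of 0.05 in edgeR lay 5 of them, 1 higher (MEST) and 4 lower (PEG10, IGF2, PLAGL1 and GRB10), and over all 12292 tested genes 51.8% did, 26.7% higher and 25.1% lower. Since the genes were chosen with this contrast known, the count describes them and is no test of them. The groups did not overlap in the same 5 members, while 61.4% of all tested genes had groups that did not overlap. The same 1 and 4 members passed without control replicate 1 and knockdown replicate 2, where 73.6% of all tested genes passed. The median log2 fold change of the 6 was -0.65, against 0.00 over all tested genes, likewise a description and no test of the members.

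A list of 52 other imprinted genes was examined beside the members. Of these, 33 had a row and the rest were not analysed here. Among the 21 that were tested, 8 rose and 3 fell in edgeR, and the median log2 fold change was 0.37. That share, 11 of 21, stands beside the 51.8% of all genes. Without control replicate 1 and knockdown replicate 2, 11 were higher and 5 lower, where 73.6% of all tested genes were called. Of the paternally expressed genes on the list, 7 were tested, 4 rose and 1 fell, and of the maternally expressed genes 12 were tested, 3 rose and 2 fell.

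Among the paternally expressed genes, L3MBTL1, a chromatin compacting protein, had 47, 37 and 48 counts in the control libraries against 134, 107 and 111 in the knockdown libraries. L3MBTL1 rose by a log2 fold change of 1.16 (SE 0.16, edgeR adjusted p = 0.000926). MKRN3, a ring finger gene that restrains puberty and lies beside MAGEL2 and NDN, rose from 2.94 ± 0.655 to 7.26 ± 1.53 CPM (SD, n = 3; edgeR adjusted p = 0.00265). ZDBF2 and INPP5F, named after their values were seen, rose by 0.87 (SE 0.17) and 0.74 (SE 0.12) on the log2 scale. NAP1L5, a nucleosome assembly protein relative, went the other way, from 185, 139 and 184 control counts to 88, 69 and 94, a log2 fold change of -1.27 (SE 0.15, edgeR adjusted p = 0.000459). The paternally expressed RTL1, named after its values were seen, had 4, 8 and 10 control and 3, 0 and 0 knockdown counts, too few to test.

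Among the maternally expressed genes, PHLDA2, which limits placental growth, fell by 1.18 on the log2 scale (SE 0.12, edgeR adjusted p = 0.000252), with means of 111 ± 15.6 and 49 ± 3.27 CPM (SD, n = 3). TP73, a p53 relative, fell from 12 ± 1.48 to 3.84 ± 1.38 CPM, a log2 fold change of -1.65 (SE 0.25, edgeR adjusted p = 0.00126). SLC22A18, which lies beside PHLDA2 on chromosome 11, rose by 0.79 (SE 0.18) and the zinc finger gene ZNF597 by 0.65 (SE 0.15) on the log2 scale, both named after their values were seen. PHLDA2 and SLC22A18 thus moved in opposite directions in these libraries. Other listed maternally expressed genes of chromosome 11 were CDKN1C (0.58, SE 0.26) and OSBPL5 (-0.15, SE 0.11), neither called, and KCNQ1, not tested. These 3 were also named after their values were seen.

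**Figure D2:**
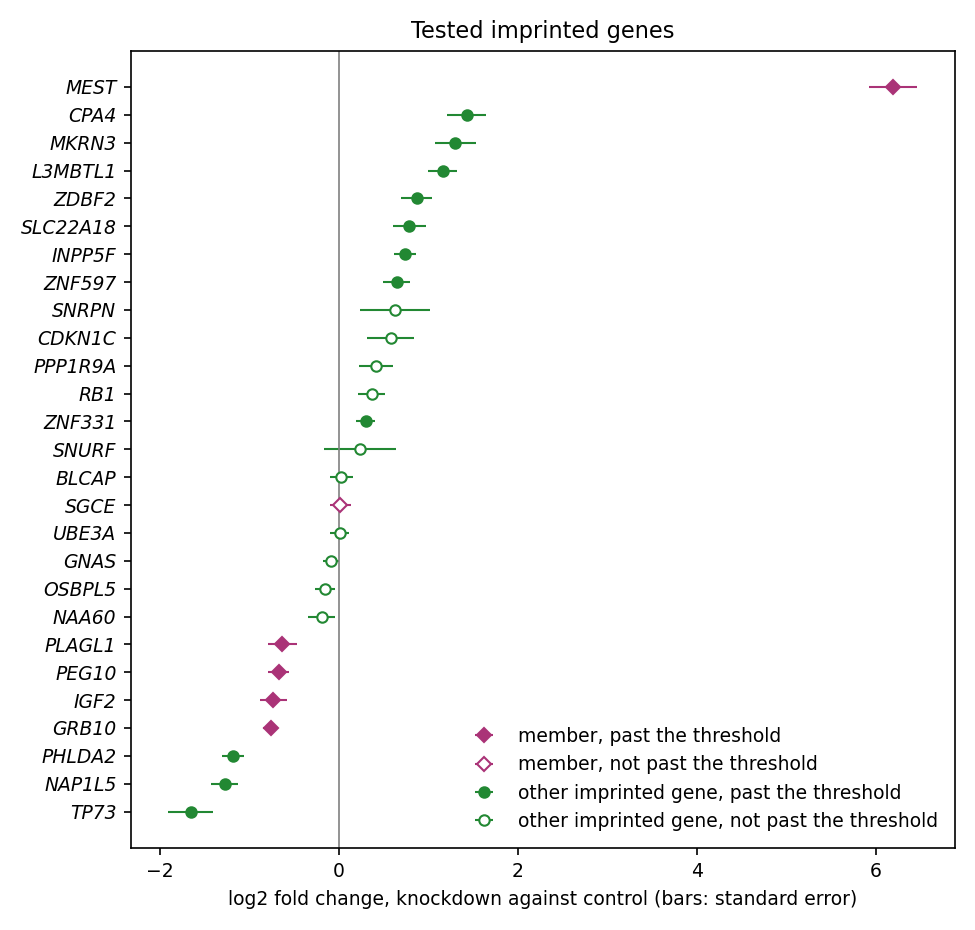
Log2 fold change with standard error of the 6 tested members (diamonds) and 21 other tested imprinted genes (circles), with filled symbols past an adjusted p of 0.05. MEST at 6.19 lies far from the rest, which run from TP73 at -1.65 to CPA4 at 1.43, and genes past the threshold lie on both sides of 0.

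To see whether the members moved with their surroundings, genes within 500 kb of a member were taken from the table. There were 85 such genes and 38 were tested, of which 9 rose and 10 fell in edgeR, 19 of 38 beside 51.8% of all genes, with a median log2 fold change of -0.01. Without control replicate 1 and knockdown replicate 2, 13 were higher and 16 lower, where 73.6% of all tested genes were called.

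Around MEST, 4 of 6 tested genes were called higher and 0 lower in edgeR, where 51.8% of all tested genes were called and 26.7% were higher, and 1 of the 4 calls, KLHDC10, was not stable. A count over 6 genes does not set this region apart from others. CEP41, a centrosome protein gene 43.7 kb away, had 42, 34 and 35 counts in the control libraries against 163, 169 and 204 in the knockdown libraries. CEP41 rose from 2.38 ± 0.233 to 9.66 ± 1.36 CPM, a log2 fold change of 2.02 (SE 0.18, edgeR adjusted p = 0.000126). COPG2, which overlaps the end of MEST on the other strand, rose from 14.2 ± 0.837 to 27.1 ± 1.08 CPM, a log2 fold change of 0.93 (SE 0.10, edgeR adjusted p = 0.000311). CPA4, a carboxypeptidase gene reported as maternally expressed, rose from 1.6 ± 0.405 to 4.33 ± 0.376 CPM (log2 fold change 1.43, SE 0.22; named after its value was seen). KLHDC10, 350 kb away, changed by only 0.28 (SE 0.09), and its call was lost in each leave-one-out fit but that without control replicate 1 (adjusted p from 0.0655 to 0.152). The fitted changes of these neighbours were all smaller than the 6.19 of MEST, a difference that was not tested.

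Beside the other members the nearest genes moved in mixed directions. CASD1, which overlaps the span of SGCE, fell from 31 ± 2.54 to 17.9 ± 2.34 CPM (log2 fold change -0.80, SE 0.13), while PPP1R9A on the far side of PEG10 lay at 14.8 ± 4.32 and 19.9 ± 0.713 CPM without a call (SD, n = 3). PPP1R9A was called higher without control replicate 1 (log2 fold change 0.69, edgeR adjusted p = 0.0025). On the sides of GRB10, FIGNL1 rose by 0.74 (SE 0.12) and COBL fell by 1.25 (SE 0.34) on the log2 scale, and COBL, at 7 to 24 counts per library, lost its call without control replicate 2 (adjusted p = 0.0673) and on both FPKM scales. On the sides of PLAGL1, the splicing factor subunit SF3B5 fell from 76.9 ± 13.5 to 33.5 ± 5.8 CPM (log2 fold change -1.20, SE 0.17), while LTV1, a ribosome assembly factor, changed by 0.37 (SE 0.14) without a call and was called higher without control replicate 1 (log2 fold change 0.51, adjusted p = 0.00975). Counts by member are to be read against the 51.8% of all tested genes that were called, 26.7% higher and 25.1% lower. Around PLAGL1, 8 genes were tested, 1 was called higher and 4 lower. Around the silent PEG3, 9 genes were tested, 2 were called higher and 2 lower. Its nearest tested neighbours, the zinc finger genes ZNF71 and ZNF264, changed by -0.22 (SE 0.20, not called) and 0.36 (SE 0.11), and the call of ZNF264 was lost in 4 of 6 leave-one-out fits (adjusted p from 0.0519 to 0.086). ZNF805, a zinc finger gene 400 kb from PEG3, rose by 0.84 (SE 0.11, edgeR adjusted p = 0.000578). Around IGF2, 0 of 5 tested genes were called in edgeR, and CD81 and MRPL23, the nearest tested on each side, changed by -0.38 (SE 0.17) and -0.33 (SE 0.27). CD81 was called lower without control replicate 1 (adjusted p = 0.0442). Without both differing libraries, CD81 and MRPL23 were called lower (edgeR adjusted p = 8.62e-13 and 0.0438), where 73.6% of all tested genes were called. Near the silent DLK1, 5 genes were tested, 0 were called higher and 2 lower. Of the 2, BEGAIN, a synaptic scaffold relative, fell from 55.8 ± 1.54 to 19.5 ± 2.13 CPM (log2 fold change -1.51, SE 0.11, edgeR adjusted p = 4.86e-05). The other was WDR25 (log2 fold change -1.03), named after its value was seen.

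**Figure D3:**
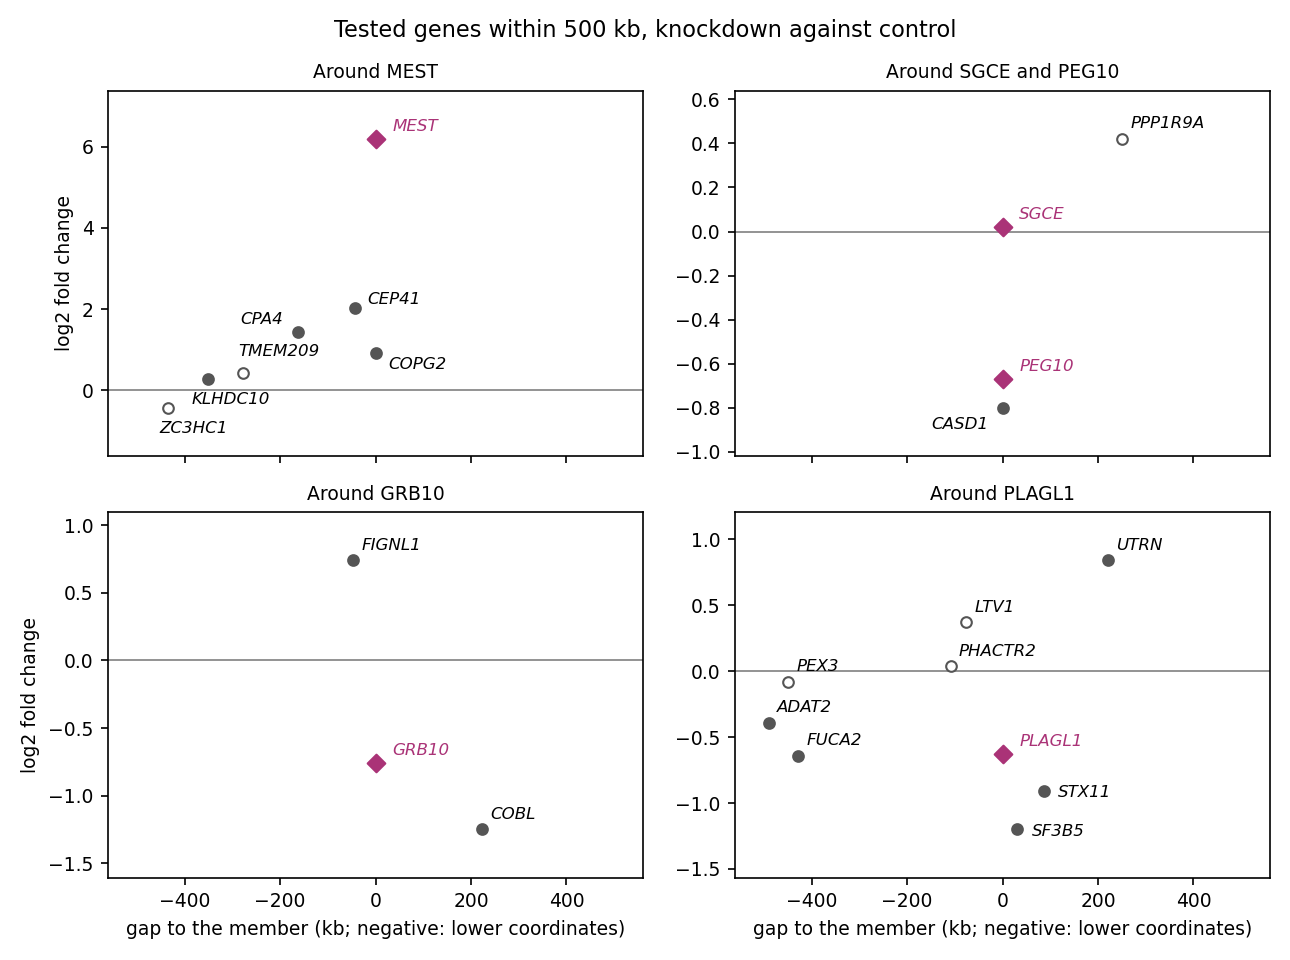
Log2 fold change of tested genes against the gap in kb to MEST, to SGCE (drawn with PEG10), to GRB10 and to PLAGL1, with members as diamonds and neighbours as circles, filled where past an adjusted p of 0.05. Around MEST, CEP41 (2.02), CPA4 (1.43) and COPG2 (0.93) are higher but far below 6.19, and the other panels hold neighbours on both sides of 0.

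Imprints are copied by the maintenance methyltransferase DNMT1 with its partner UHRF1, and protected by zinc finger proteins that recruit TRIM28 and histone methyltransferases. Of 30 listed genes that keep or remove imprints, 26 were tested, 7 rose and 8 fell in edgeR, and the median log2 fold change was 0.06, 15 called of 26 beside the 51.8% of all genes. Without control replicate 1 and knockdown replicate 2, 12 were higher and 10 lower, where 73.6% of all tested genes were called. UHRF1 had 3378, 3246 and 3298 counts in the control libraries against 1832, 1558 and 1846 in the knockdown libraries. UHRF1 fell by 1.18 on the log2 scale (SE 0.08, edgeR adjusted p = 3.44e-05). DNMT1 fell from 322 ± 2.04 to 226 ± 35.6 CPM, a log2 fold change of -0.51 (SE 0.12, edgeR adjusted p = 0.00827). TRIM28, the co-repressor at imprinting control regions, fell from 768 ± 77.3 to 388 ± 35.5 CPM, a log2 fold change of -0.98 (SE 0.11, edgeR adjusted p = 0.00038).

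The histone methyltransferase EHMT1 fell by 0.53 and the chaperone DAXX by 0.55 on the log2 scale. Of the listed genes that act in removing methylation, TDG and TET3 fell too. Their log2 fold changes were -0.47 (SE 0.09) and -0.34 (SE 0.09; edgeR adjusted p = 0.00386 and 0.0181), while TET1 and TET2 were not called. The de novo methyltransferase DNMT3B rose by 0.47 (SE 0.11), from 11.3 ± 0.288 to 15.7 ± 1.02 CPM (SD, n = 3). The cohesin subunits SMC1A and SMC3 rose by 0.97 (SE 0.14) and 1.55 (SE 0.35), and the chromatin remodeller ATRX by 1.40 (SE 0.27). Control replicate 1, one of the differing libraries, had 1857 SMC3 counts against 742 and 792 in control replicates 2 and 3, and 1673 ATRX counts against 850 and 809. With both differing libraries left out, the changes were 1.87 for SMC3 and 1.66 for ATRX. ZNF445, which protects imprints in human cells, changed by -0.26 (SE 0.09), a call lost in all 6 leave-one-out fits (adjusted p from 0.0525 to 0.139). ZFP57 had 1 count in all 6 libraries together, and DNMT3L and DPPA3 had 0. DNMT1, DNMT3B, DAXX, TDG, TET1, TET2, TET3, SMC3, ATRX and ZNF445 were named after their values were seen.

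**Figure D4:**
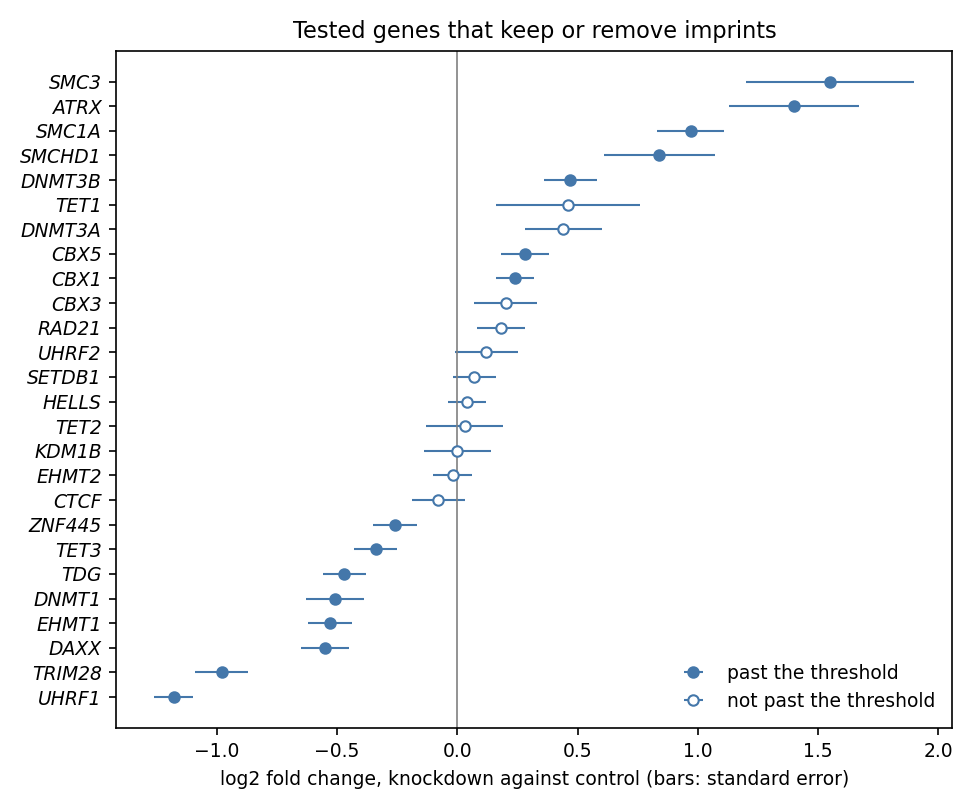
Log2 fold change with standard error of the 26 tested genes that keep or remove imprints, with filled circles past an adjusted p of 0.05. UHRF1 (-1.18) and TRIM28 (-0.98) lie lowest and SMC3 (1.55) and ATRX (1.40) highest.

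Partners and relatives of the members were listed by role, and their counts are to be read against the 51.8% of all tested genes that were called, 26.7% higher and 25.1% lower. Of 11 genes that carry or bind the IGF2 and GRB10 signal, 10 were tested, 1 rose and 3 fell in edgeR. IRS2, an insulin receptor substrate, fell from 39.9 ± 2.31 to 23.3 ± 2.08 CPM, and IGF2BP1, which binds IGF2 mRNA, from 203 ± 6.53 to 138 ± 12 CPM (SD, n = 3; edgeR adjusted p = 0.000842 and 0.00179). The insulin receptor INSR changed by -0.42 (SE 0.13), a call lost in 4 of 6 leave-one-out fits, the exceptions being those that dropped control replicate 1 or knockdown replicate 2 (adjusted p from 0.059 to 0.0851 in the 4). GRB7, a paralog of GRB10, had 2, 8 and 5 control counts and 43, 26 and 32 knockdown counts, and rose (log2 fold change 2.46, SE 0.40, edgeR adjusted p = 0.00187). GRB10 and GRB7 thus moved in opposite directions.

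PEG10 belongs to a family of genes derived from retrotransposons, of which 11 others were listed, 6 tested, 3 rose and 0 fell in edgeR, 3 of 6 beside 51.8% of all genes. Those that rose were RTL8A, RTL8B and RTL8C, at log2 fold changes of 1.38 (SE 0.19), 1.01 (SE 0.12) and 1.25 (SE 0.13). They lie close together on chromosome X and are near-identical copies, so the split of reads between them is uncertain. PEG10 itself moved in the other direction.

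Of 9 listed relatives of NDN and MAGEL2 (type II MAGE genes), 5 were tested, 2 rose and 1 fell. MAGED1, an adaptor in cell death signalling, rose from 88.7 ± 2.37 to 147 ± 22.9 CPM and MAGED2 from 60.9 ± 1.14 to 80.5 ± 7.71 CPM, while MAGEF1 fell from 29.2 ± 3.85 to 17.3 ± 3.17 CPM (SD, n = 3; edgeR adjusted p = 0.00193, 0.0102 and 0.00679). MAGEE1, named after its values were seen, had 0, 0 and 0 control counts and 22, 6 and 19 knockdown counts and did not pass the filter.

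Of 7 listed sarcoglycan complex genes beside SGCE, 3 were tested, and 1, SSPN (sarcospan), rose from 0.79 ± 0.176 to 4.15 ± 0.583 CPM (log2 fold change 2.38, SE 0.24, edgeR adjusted p = 0.000232). SGCB and DAG1, the dystroglycan gene, were at 87.2 ± 2.07 and 369 ± 9.93 CPM in controls and 77.1 ± 1.85 and 336 ± 65.4 CPM in knockdown libraries (SD, n = 3). Neither was called with all libraries, and both were called lower without knockdown replicate 2 (adjusted p = 0.0484 and 0.00689). Of 6 relatives and partners of PLAGL1 and DLK1, 1 rose and 1 fell. PLAG1, an oncogenic zinc finger paralog of PLAGL1 that activates IGF2, had 41, 46 and 39 control counts and 195, 174 and 176 knockdown counts, a log2 fold change of 1.86 (SE 0.16, edgeR adjusted p = 0.000108). DLK2, the paralog of DLK1, fell from 9.37 ± 1.25 to 4.28 ± 0.512 CPM (log2 fold change -1.12, SE 0.17).

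Other genes also went from near 0 to a clear level, and their number depended on the limit set for near 0. At most 3 counts in every control library were found for 6476 genes, a limit that MEST meets by construction, since it is its highest control count. Of these, 76 had at least 10 counts in every knockdown library, 10 had at least 50 and 4 had at least 100. The 4 were MEST, the neurotrophin BDNF, the ETS factor FLI1 and the cationic amino acid transporter SLC7A2, a group set after the values were seen. With a limit of 10 control counts, also chosen after the values were seen, 277, 50 and 22 genes reached the same 3 levels. In the reverse direction, 15, 5 and 0 genes went from at most 3 counts in every knockdown library to those levels in the controls. From at most 10 counts, 77, 10 and 2 genes did. All these limits are on unscaled counts, and every knockdown library held more counts in all than any control library. Over the 6 libraries, the tested genes closest to MEST by Euclidean distance of log2(CPM + 0.5) were SHISA2 (0.564), TNFSF15 (0.591), BDNF (0.624), SLC7A2 (0.865) and MME (0.972). This distance follows the step between the groups and says little else, since there are only 2 groups.

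Markers of other cell types were checked because MEST is abundant in mesenchymal and embryonic cells. Their calls are to be read against the 51.8% of all tested genes that were called, 26.7% higher and 25.1% lower. Of 9 epithelial markers all 9 were tested, 4 rose and 3 fell, and their sum ran from 3710 to 4190 CPM in controls and 3600 to 4370 CPM in knockdown libraries. Those that fell were EPCAM, SOX9 (log2 fold change -0.39) and ANXA2 (-0.38), the last 2 named after their values were seen. ANXA2 (2310 CPM in controls) and KRT8 (947 CPM) made up most of the epithelial sum, so it says little of the other epithelial markers. The keratin KRT7, also named after its values were seen, had 14, 17 and 20 control against 40, 14 and 31 knockdown counts, without a call. Of 9 fibroblast markers 3 were tested, 1 rose and 2 fell, their summed level ran from 83.3 to 97.5 CPM in controls and 48.9 to 53.1 CPM in knockdown libraries, and DCN, COL1A2 and FAP had 0 counts in all 6 libraries. The collagen gene COL1A1 fell from 83.8 ± 7.17 to 44.3 ± 2.77 CPM and COL3A1 rose from 2.39 ± 0.393 to 5.1 ± 1.19 CPM (SD, n = 3; edgeR adjusted p = 0.000311 and 0.00622). THY1 changed by -0.87 (SE 0.27), a call lost in 4 of 6 leave-one-out fits (adjusted p from 0.0693 to 0.101). Of 7 embryonic kidney line markers 3 were tested, 1 rose and 0 fell, and their sum ran from 29.6 to 33.2 and from 36 to 47 CPM. The one that rose was LHX1, from 56, 39 and 41 to 333, 348 and 353 counts, while SALL1 and NEFL had 0 counts. PAX2 changed by -0.40 (SE 0.20) without a call and was called lower without knockdown replicate 2 (adjusted p = 0.0051). Of 5 endothelial markers 1 was tested and rose, KDR, from 4, 4 and 4 to 114, 100 and 132 counts, and the summed level was 0.441 to 0.668 and 5.86 to 7.25 CPM, with VWF at 5 or fewer and PECAM1, CDH5 and TEK at 4 or fewer counts in each library. Immune markers summed to 0.802 to 1.84 and 2.26 to 3.16 CPM, with 1 of 7 tested. That was CD14, which changed by 0.99 (SE 0.33), a call lost in 4 of 6 leave-one-out fits (adjusted p from 0.0783 to 0.122), and CD68 had at most 5 counts in a library. Stem cell markers summed to 0.823 to 1.57 and 1.22 to 2.19 CPM, with 1 of 5 tested. That was SALL4, at 0.86 (SE 0.48) without a call, and POU5F1 had 4 to 10 counts per library. SALL4 was called higher without control replicate 1 and knockdown replicate 2 (adjusted p = 0.0139). The part of other cells in the MEST result was not tested beyond these values.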

How the data were processed

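Total RNA of PANC-1 cells was extracted with TRIzol and sequenced from NEBNext Ultra II libraries, per the labels' protocols. Groups come from the sample titles, with nc read as the control and sh as the knockdown that the series' design text describes. No source used here names the aligner, the counter, the gene models or how strand was treated. The authors deposited raw read counts and FPKM values per gene, per the file headers, and 100% of the nonzero FPKM values equal the count divided by gene length and table total (within 0.1%). Of 19852 identifiers in GENCODE 29, 79% share a GRCh38 start or end with it.

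Counts were filtered with filterByExpr, scaled by TMM and tested with edgeR 4.0.16 (quasi-likelihood, R 4.3.3), with Benjamini-Hochberg adjustment over all 12292 tested genes and a threshold of 0.05. Standard errors come from the fold change and its F statistic. Alternatives used other scalings, filters, DESeq2 1.42.0, limma 3.58.1 and fewer libraries. Members and lists were chosen with earlier results of these data known. Genes named follow a rule: the members, up to 4 called genes per list by adjusted p (the 2 of highest mean where fewer than 2 were called), the nearest tested gene on each side of a member, and the 5 genes closest to MEST. Promoter and microRNA sequences are from RefSeq (GRCh38.p14).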

Additional observations from a re-analysis of the deposited data

How the results depend on the processing

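The members were chosen with this contrast known, so their values over the alternatives are a description and no sign of stability. The size of the MEST change depended on the scale: 1.61 by limma on log2(FPKM + 1) and 4.15 on log2(FPKM + 0.1), where the added constant compresses low values, against 5.83 to 6.61 in the fits to counts. SGCE changed sign around 0 without control replicate 2 (-0.03), control replicate 3 (-0.01) or knockdown replicate 2 (-0.10) and without both differing libraries (-0.01), with a range of -0.10 to 0.08 when 1 library was left out, and was not called in any alternative. Leaving out 1 library gave 4 to 5 called members, 10 to 12 called genes among the other imprinted genes, 10 to 16 among the imprint maintenance genes, 14 to 22 among the neighbours and 4748 to 6784 over the whole table. With control replicate 1 left out along with knockdown replicate 2, 29 of 38 neighbours were called, more than 1.5 times the 19 with all libraries, and 9135 of 12415 genes. Whether replicate numbers pair the libraries was not settled. Deviations from the group means correlated at -0.3, -0.28 and 0.3 for numbers 1, 2 and 3. The highest correlation, 0.45, joined control replicate 1 to knockdown replicate 2, the differing libraries. Deviations within a group sum to 0 and so are tied to each other, and these values cannot decide on pairing. With the replicate number as a block, 5444 genes, 5 members, 10 other imprinted genes, 12 maintenance genes and 16 neighbours were called. Among genes near 0 in the controls, a limit of 10 counts in place of 3, added after seeing the data, moved the number at 50 and 100 or more knockdown counts from 10 and 4 to 50 and 22, and the reverse numbers from 5 and 0 to 10 and 2. Library size alone in place of TMM moved the median log2 fold change of all genes to 0.09. Counts of 0 to 6 per library limit what can be said of PEG3, NDN, MAGEL2 and DLK1.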
